A study of Mus musculus with 12 samples.

Results

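The libraries described here are the 4 floxed control libraries of day 5 and day 8 in a series of 12 RNA sequencing libraries that follows mouse embryonic stem (ES) cells through differentiation towards neuromesodermal progenitors and beyond. They were taken by their labels: genotype Smchd1 fl/fl, meaning that both alleles of the chromatin protein gene Smchd1 carry loxP sites, at day 5 or day 8. The cells were C57BL/6 ES lines labelled male, and per the labels' protocols each line grew out of 1 blastocyst and was then divided. The fl/fl part was never transduced and never selected, whereas the Smchd1 del/del part was transduced with a Cre retrovirus that also confers resistance to puromycin, and was selected with that drug. Both parts were weaned into serum and LIF, the cytokine that holds ES cells undifferentiated. LIF was then withdrawn and Fgf2 given, a Gsk3 inhibitor was added after 2 days, and the growth factor Gdf11 after 4 further days, that is at day 6. The first sampling is day 1 in the labels and day 0 in the protocol, whereas days 5 and 8 stand in both and are taken to count from the withdrawal of LIF. On that count day 5 cells had seen Fgf2 and the Gsk3 inhibitor, and day 8 cells Gdf11 as well. Each group held 2 libraries, 1 from line 1 and 1 from line 3, and pairs of values are given in that order throughout. No arm without Gdf11 is among the 12 libraries, so 3 days of further culture and exposure to Gdf11 cannot be told apart. The labels name the cell type only by day and course, and the lines are the sole replicates, so p-values measure the spread between these lines and cultures.

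Neuromesodermal progenitors are bipotent cells of the caudal embryo that carry both the mesodermal factor T (Brachyury) and the neural factor Sox2, and are held by Wnt and Fgf signals. They feed the spinal cord and, through Tbx6 and Msgn1, the presomitic mesoderm from which somites are cut by a Notch-driven clock. Gdf11 is a ligand of the TGF-beta family that binds activin type II receptors and acts through Smad2 and Smad3. In the embryo it drives the passage from trunk to tail, with a shift to the 5-prime, posterior Hox genes and the loss of trunk regulators such as Nr6a1 and Lin28a.

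The promoters of 4 genes are shown as examples of called genes that fell or rose. Msgn1, T and Sp5 are Wnt-dependent genes of the caudal progenitor and presomitic mesoderm that fell, and Col3a1, a fibrillar collagen gene, rose. Each is the RefSeq window (GRCm38.p6) from 250 bases before to 50 bases after the start of transcription, read 5′ to 3′ on the strand of the gene. The windows are chr12:11208899-11209198 for Msgn1 (minus strand), chr17:8434173-8434472 for T (plus), chr2:70474673-70474972 for Sp5 (plus) and chr1:45311288-45311587 for Col3a1 (plus). Capitals mark matches on either strand to CTTTGA or CTTTGT, the core bound by TCF/LEF factors, and to TATAAA, the TATA box. No base belongs to matches of both kinds.
Msgn1: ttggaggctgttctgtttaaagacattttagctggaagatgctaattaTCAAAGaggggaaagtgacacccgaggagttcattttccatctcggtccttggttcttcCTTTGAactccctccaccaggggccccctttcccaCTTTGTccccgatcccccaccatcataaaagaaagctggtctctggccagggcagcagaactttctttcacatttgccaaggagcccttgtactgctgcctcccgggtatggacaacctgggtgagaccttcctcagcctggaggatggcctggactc
T: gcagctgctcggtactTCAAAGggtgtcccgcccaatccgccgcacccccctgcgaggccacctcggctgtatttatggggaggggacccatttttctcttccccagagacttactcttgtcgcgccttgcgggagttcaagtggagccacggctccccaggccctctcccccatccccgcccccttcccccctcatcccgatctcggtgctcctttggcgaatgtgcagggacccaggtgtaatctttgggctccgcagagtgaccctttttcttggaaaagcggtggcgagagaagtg
Sp5: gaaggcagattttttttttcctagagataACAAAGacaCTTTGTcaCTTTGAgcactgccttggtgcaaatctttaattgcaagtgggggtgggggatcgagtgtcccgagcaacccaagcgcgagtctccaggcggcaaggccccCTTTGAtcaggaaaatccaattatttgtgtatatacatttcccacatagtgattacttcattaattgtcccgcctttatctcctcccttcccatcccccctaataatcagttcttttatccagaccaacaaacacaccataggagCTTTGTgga
Col3a1: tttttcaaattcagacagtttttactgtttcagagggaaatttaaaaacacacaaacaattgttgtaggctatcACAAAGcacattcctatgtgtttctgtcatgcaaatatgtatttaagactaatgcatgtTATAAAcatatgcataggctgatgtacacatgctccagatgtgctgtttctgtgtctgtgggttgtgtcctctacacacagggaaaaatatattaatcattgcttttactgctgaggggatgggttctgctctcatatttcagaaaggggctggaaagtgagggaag
The Msgn1 window held 3 TCF/LEF matches, that of T 1, that of Sp5 5 and that of Col3a1 1, so the gene that rose has the core as well. The 1 match to TATAAA, of the plus strand, lies in Col3a1, near the middle of the window and well before the start of transcription. Such matches are common: 31.2% of all 32851 promoter windows held at least 1, as did 23.8% of the windows of tested genes, 23.0% of those of genes called higher and 24.7% of those of genes called lower. TATAAA lay in 13.6% of all windows and 7.10% of those of tested genes, against 13.6% and 6.96% for genes called higher and lower. The letters are a description of these windows and show no binding. A window was found for 116 of the 166 genes whose values are tabulated.

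One of the 4 libraries stands apart. Line 3 at day 8, whose column name marks it as merged, had 1.51 M reads in genes against 5.97 M for line 1 at day 8 and 4.36 and 7.60 M at day 5. Of the 14063 tested genes 590 had 0 reads in it, against 44 to 112 in the other 3. Reads of the dense gene Eef1a1, which encodes a translation factor, hardly followed depth in any of the 4 libraries. They numbered 1835 and 2000 at day 5 and 1810 and 1680 at day 8. That trait was thus not particular to line 3 at day 8. In the tenth of genes with the most reads per exon base the median change was -0.18 (log2) in line 1 and 0.37 in line 3. Results are therefore given with this library and without it. Values for 25965 genes were deposited as log2 RPM, that is reads relative to each M (mega) of reads, and the reads themselves could be recovered from them. Levels below are rescaled RPM, in which each library is shifted so that its median gene matches the others. On the deposited scale the median gene was 0.55 lower (log2) at day 8, so every change below is relative to that gene. In bulk RNA, fewer cells of a type and less RNA per cell cannot be told apart.

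Between day 5 and day 8 transcripts of caudal progenitors and presomitic mesoderm fell in the control cells, and those of mesenchyme, matrix and some Smad2/3 response genes rose. Across 14063 tested genes, 425 were higher at day 8 (3.02%) and 504 lower (3.58%) at an adjusted p under 0.05 (limma, Benjamini-Hochberg), and 3498 had an unadjusted p under 0.05. With the shallow library left out, 216 genes passed upwards (1.54%) and 226 downwards (1.61%). The calls shared by both numbered 359, which is 38.6% of the calls with all libraries and 81.2% of those without it. In 929 of 929 called genes both lines moved the same way, against 59.3% of all tested genes, a direction that the test itself favours with so few libraries. The days did not overlap in 929 of 929 called genes, nor in 6997 of all 14063 tested genes. Across tested genes, which are not independent replicates, the changes of the lines correlated with a Pearson r of 0.355 and a Spearman rho of 0.293. With 2 libraries against 2, an exact permutation test of a single gene cannot give a two-sided p below 0.333, so the calls lean on a spread pooled over the 6 groups. On the spread of the 4 libraries alone 40 genes were higher and 8 lower. On the deposited scale 24 genes were higher and 152 lower. Without the day 5 library of line 1 the counts were 35 and 23, and without that of line 3 they were 142 and 104. Without the day 8 library of line 1, where the shallow one stands alone, they were 1221 and 2033. Of the 106 called genes among the 166 tabulated, 13 kept their call without the day 5 library of line 1, 50 without that of line 3 and 63 without the shallow library. The same 13 genes kept it without each of the 4 libraries in turn: Lce1h, Grem1, Twist1, Col5a1, Ctgf and Usp18, which rose, and Tnfrsf8, Foxh1, Nr6a1, Ngfr, Wnt6, Trim71 and Slc7a3, which fell.

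**Figure D1:**
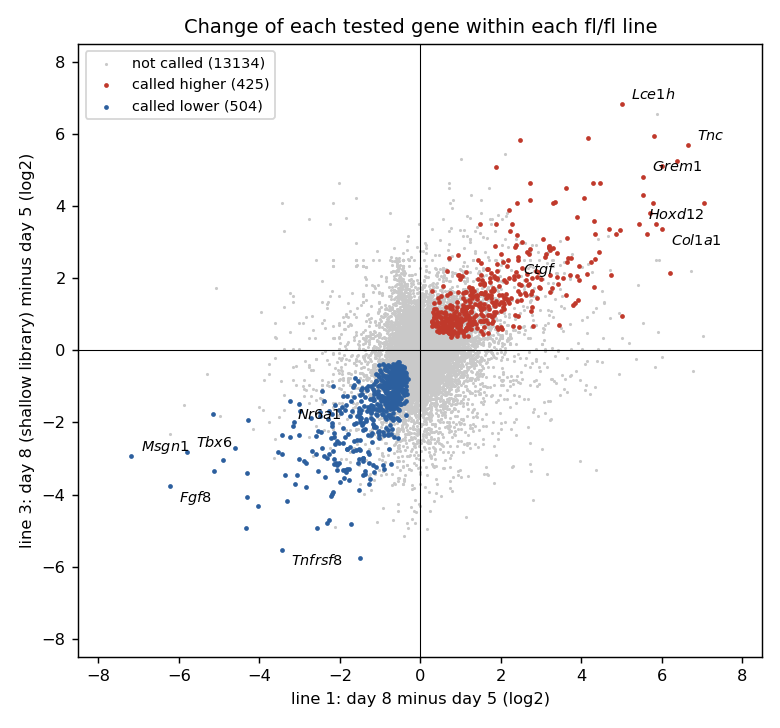
Change from day 5 to day 8 of each tested gene in line 1 (x axis, log2) and in line 3 (y axis, log2), relative to the median gene. Red points are the 425 genes called higher, blue points the 504 called lower and grey points the rest; all called genes lie in the quadrants where both lines moved the same way.

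Caudal progenitor genes fell. Of the 14 tested members of the list of neuromesodermal progenitor and caudal genes, 7 were lower and 0 higher, and the median change was -2.17 (log2), against 0.00 for all tested genes. Leaving out the shallow library gave 5 lower members and a median of -1.47, without the day 5 library of line 1 the count was 0 and the median -1.88, and without that of line 3 they were 3 and -2.41. Fgf8, which signals in the caudal progenitor zone, had 55 and 69 reads at day 5 and 1 and 0 at day 8. Its level in reads fell 74.1-fold (95% counting interval 13.1 to 2952). Such an interval covers counting error only and leaves out the spread between the lines. The fitted change of Fgf8 was -4.99 ± 0.85 (SE, adjusted p = 0.00976 by limma). Fgf17, a close relative of Fgf8, went from 44 and 54 reads to 3 and 0. T, whose product defines mesodermal fate in these cells, stood at 29.3 and 18.6 rescaled RPM at day 5 and at 4.42 and 5.10 at day 8. Both lines were thus far lower at day 8, with no overlap, though the days did not overlap in 6997 of all 14063 tested genes. T changed by -2.30 ± 0.43 (SE, adjusted p = 0.0142 by limma), and by -2.40 without the shallow library. Dropping line 1 at day 5 gave a change of -1.97, and T then lost its call. Dropping line 3 at day 5 instead gave -2.63. Evx1, a homeobox gene of the primitive streak and tail bud, changed from 14.3 and 10.9 to 3.15 and 1.56 rescaled RPM. Sp5, a direct target of Wnt signalling, went from 40.4 and 28.0 to 10.7 and 4.67 rescaled RPM (-2.25 ± 0.49, adjusted p = 0.0254), and lost its call without the shallow library (-1.66, adjusted p = 0.121). Cdx4 and Epha5 were the other called members, named after their values were seen. Sox2, the neural factor of the progenitor pair, was not called: it stood at 16.87 and 15.34 rescaled RPM at day 5 and 12.02 and 15.58 at day 8. Sox2 too was picked after its values were seen.

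Presomitic mesoderm genes fell too. Of the 12 tested members of that list 5 were lower and 0 higher, with a median of -2.17, and 3 were lower without the shallow library, with a median of -2.31. Without the day 5 library of line 1 the count was 0, and without that of line 3 it was 2. Msgn1, the bHLH factor of presomitic fate, had 107 and 39 reads at day 5 and 1 and 0 at day 8. This was an 87.3-fold fall in reads (95% counting interval 15.4 to 3471). The fitted change of Msgn1 was -5.06 ± 1.00 (adjusted p = 0.0179 by limma), with -7.18 in line 1 and -2.94 in line 3. Tbx6, the T-box factor that turns progenitors to paraxial mesoderm, stood at 7.38 and 2.00 rescaled RPM at day 5 and at 0.133 and 0.283 at day 8 (-4.31 ± 0.97, adjusted p = 0.0286). These genes differed between the lines at day 5, line 1 being higher for both. Dll1, the Notch ligand of the segmentation clock, fell from 15.3 and 5.68 to 0.93 and 0.283 rescaled RPM (-4.19 ± 0.71, adjusted p = 0.00973). Dll3, its divergent partner, fell from 11.9 and 3.83 to 0.332 and 1.13. Hes7, the clock's oscillating repressor, was the fifth called member. Neither Tbx6 (adjusted p = 0.0614) nor Dll1 (0.0515) passed without the shallow library. Later somite genes were scarce: 9 of the 21 members in the table did not reach the level for testing.

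Some of the steepest falls lay outside these lists. Smpd3, a neutral sphingomyelinase gene, went from 5.35 and 4.31 to 0.266 and 0.142 rescaled RPM (-4.63 ± 0.60, adjusted p = 0.00354). Tnfrsf8, which encodes CD30, a surface receptor found on undifferentiated pluripotent cells, had 113 and 237 reads at day 5 and 14 and 0 at day 8 (-4.50 ± 0.54, adjusted p = 0.0032). Its call held without each of the 4 libraries in turn. Arg1, an arginase gene, went from 59 and 85 reads to 4 and 0. Stra8, a gene induced by retinoic acid at meiotic entry, had 26 and 52 reads at day 5 and 1 and 0 at day 8 (46.6-fold fewer, 95% counting interval 8.13 to 1865). Its fitted change was -4.25 ± 0.58 (adjusted p = 0.00468 by limma). Fut1, a fucosyltransferase gene, had 22 and 42 reads and then 1 and 0, and Ltf, the lactoferrin gene, 44 and 93 and then 6 and 0. Sall3, a zinc finger gene, went from 153 and 154 reads to 35 and 0, so that its fall in line 1 was much smaller than in the shallow library. Without that library Sall3 changed by -2.15 (adjusted p = 0.0496).

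**Figure D2:**
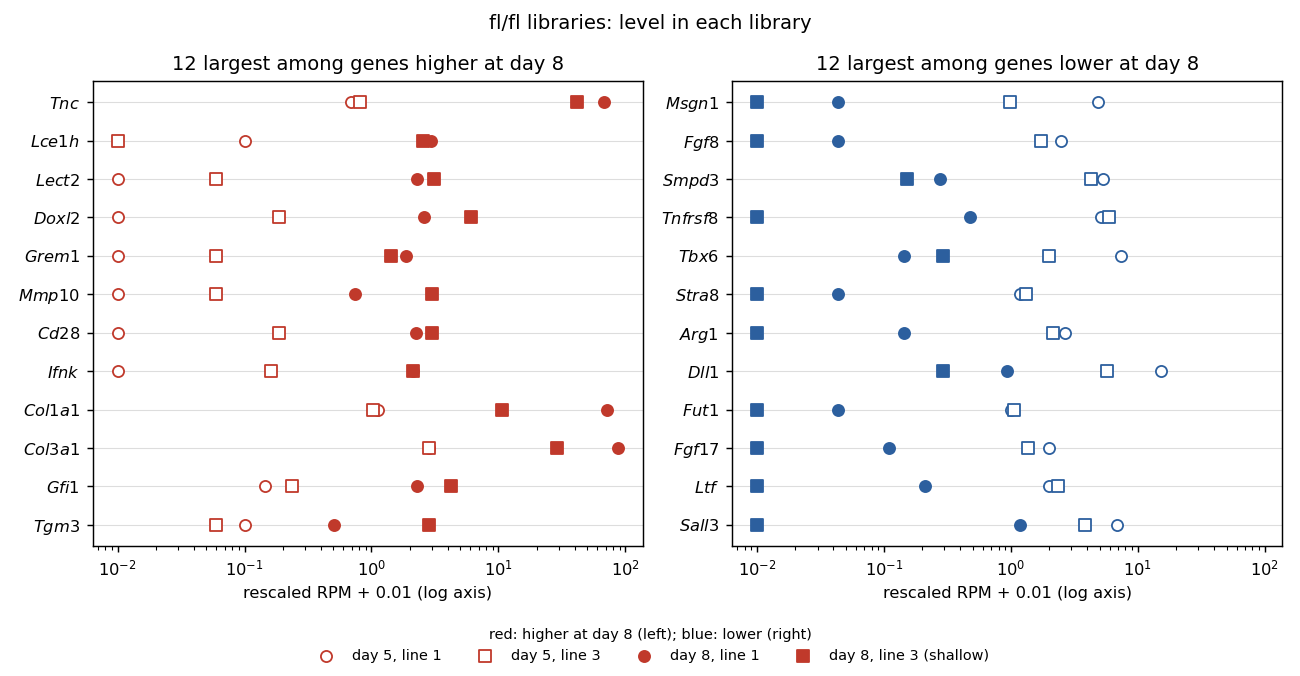
Level in each of the 4 fl/fl libraries (x axis, rescaled RPM with 0.01 added, log axis) of the 12 genes with the largest rises (left, red) and the 12 with the largest falls (right, blue). Open symbols are day 5 and filled symbols day 8, circles line 1 and squares line 3. A symbol at the left edge stands for 0 reads. Only called genes whose days did not overlap were eligible, so both filled symbols lie on 1 side of both open ones by choice. The days did not overlap in 6997 of all 14063 tested genes.

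Mesenchymal and matrix genes rose. Of 23 tested members of the list of mesenchymal transition and fibroblast genes, 12 were higher and 0 lower, with a median change of 1.82, and 10 were higher without the shallow library, with a median of 1.89. Without the day 5 library of line 1 the count was 2 and the median 1.81, and without that of line 3 they were 3 and 1.83. Col1a1, a chain of type I collagen, had 25 and 41 reads at day 5 and 2168 and 75 at day 8, or 1.12 and 1.03 against 72.0 and 10.6 rescaled RPM. Col3a1 stood at 2.83 in both lines at day 5 and at 87.6 and 28.9 at day 8 (4.15 ± 0.70, adjusted p = 0.00973). Both collagens were thus higher in each line and far more so in line 1. Col5a1, a fibril-nucleating collagen gene, went from 10.7 and 10.6 to 64.1 and 32.2 (2.09 ± 0.27, adjusted p = 0.00354). Twist1, a bHLH factor of mesenchyme, went from 2.34 and 3.28 to 14.5 and 12.8 (2.30 ± 0.26, adjusted p = 0.00292), and the calls of Col5a1 and Twist1 held without each of the 4 libraries. Lum, the gene of the collagen-binding proteoglycan lumican, had 0 reads in both day 5 libraries and 24 and 4 at day 8, at least 15.6-fold higher against a floor of 3 reads over the day 5 group. Fn1, the fibronectin gene, went from 225.0 and 209.4 to 439.6 and 889.0 rescaled RPM (1.53 ± 0.25, adjusted p = 0.00821). Fn1 is among the densest genes, and without the shallow library its change was 1.02 (adjusted p = 0.00661). The other called members, named after their values were seen, were Vim, Cdh11, Snai2, Col1a1, Col3a1, Postn, Acta2 and Tagln. Prrx1, a homeobox gene of limb and lateral mesenchyme, rose from 0.765 and 0.851 to 15.2 and 10.3 (3.96 ± 0.72, adjusted p = 0.0131). With Twist1 it made up the 2 called members of 10 tested in the list of lateral, intermediate and limb mesoderm, where 3 were higher and 1 lower without the shallow library, and Prrx1 was not called without the day 5 library of line 1 (adjusted p = 0.12) or line 3 (0.0655).

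The largest rise of the naming rule was that of Tnc (chromosome 4, 63959785 to 64047015, mm10), which encodes the matrix protein tenascin C. Tnc had 15 and 32 reads at day 5 and 2026 and 291 at day 8, or 0.675 and 0.801 against 67.3 and 41.2 rescaled RPM (6.16 ± 1.25, adjusted p = 0.0195). The value without the shallow library was 6.52 with an adjusted p of 0.0636, so the call was lost although the change was as large. Grem1, a secreted antagonist of BMP ligands, had 0 and 2 reads and then 56 and 10, a rise of 55.2-fold in reads (95% counting interval 14.7 to 465). Lce1h, a gene of the epidermal late cornified envelope, had 2 and 0 reads and then 88 and 18 (88.6-fold, 23.9 to 741). The fitted changes of Grem1 and Lce1h were 5.17 ± 0.66 and 5.92 ± 0.78 (adjusted p = 0.00354 and 0.00368 by limma). The calls of Grem1 and Lce1h held without each of the 4 libraries. Several other large rises concerned genes better known from other tissues, at low read numbers. Lect2, a secreted liver protein gene, had 0 and 2 reads and then 68 and 22, and Doxl2, an amine oxidase-like gene, 0 and 7 and then 78 and 43. Mmp10, a stromelysin gene, had 0 and 2 and then 22 and 21, and Cd28, a T cell costimulatory receptor gene, 0 and 7 and then 67 and 21. Ifnk, an interferon gene, went from 0 and 6 reads to 64 and 15, Gfi1, a zinc finger repressor gene, from 3 and 9 to 68 and 30, and Tgm3, an epidermal transglutaminase gene, from 2 and 2 to 15 and 20. Without the shallow library Lect2 (adjusted p = 0.0457) and Cd28 (0.0462) passed, and Doxl2 (0.0876), Mmp10 (0.115), Ifnk (0.0516), Gfi1 (0.0577) and Tgm3 (0.0614) did not.

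**Figure D3:**
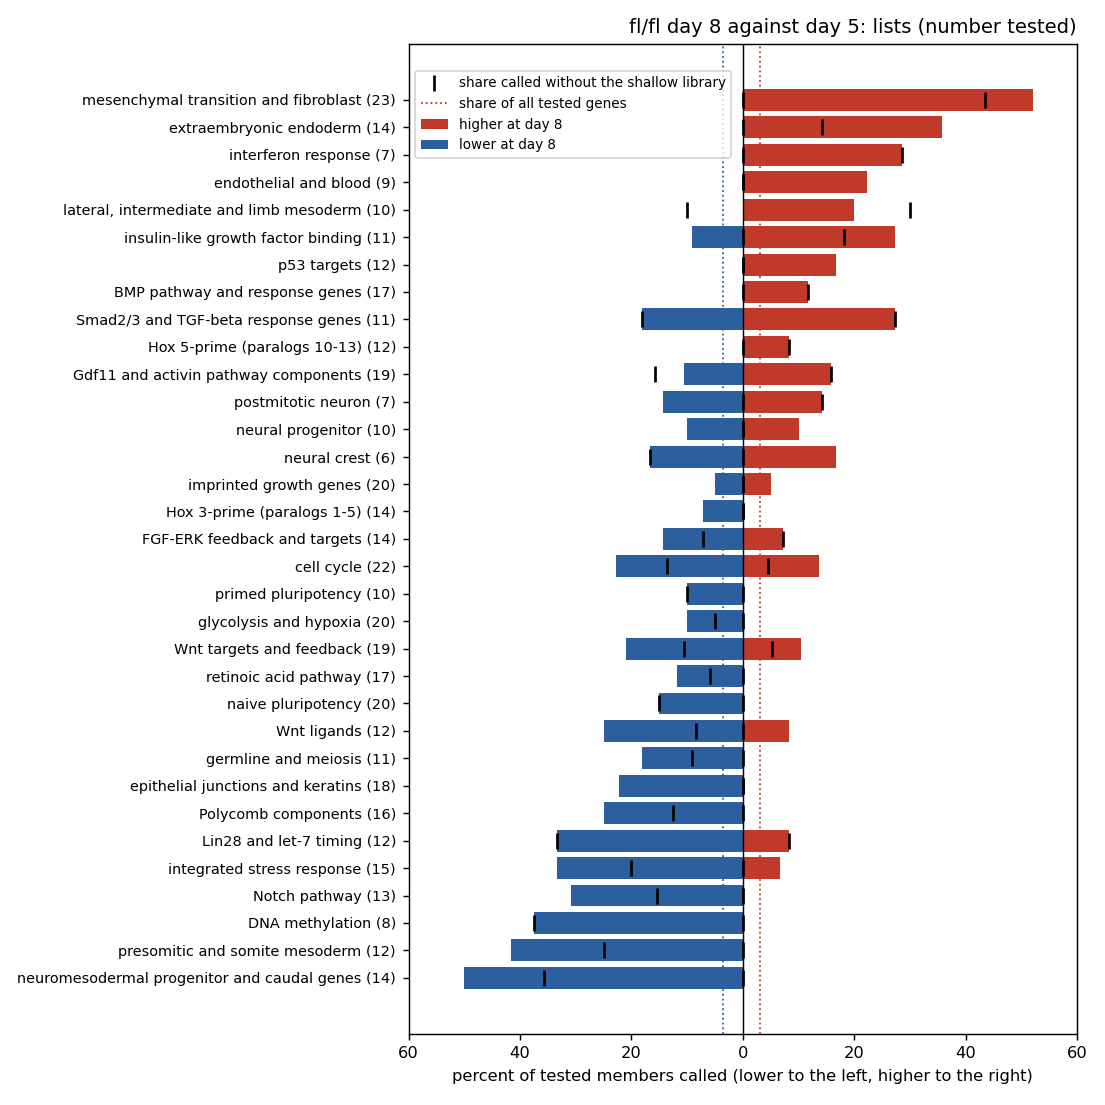
Share of the tested members of each gene list (number tested in brackets) called higher (red, to the right) or lower (blue, to the left) at day 8, for lists with at least 1 call. Dotted lines are the shares of all tested genes, 3.02% and 3.58%, and black ticks the shares without the shallow library; the mesenchymal list stands at 12 of 23 higher and the caudal progenitor list at 7 of 14 lower.

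Among the Gdf11 and activin pathway components the called genes were a ligand chain, a pair of inhibitors, a Smad partner and a receptor. Of 19 tested components 3 were higher and 2 lower, with a median of 0.03, and 3 and 3 without the shallow library. Without either day 5 library 0 were higher and 1 lower, which without that of line 1 was Foxh1 (adjusted p = 0.0488), as it was without that of line 3 (0.0341). Inhbb, which encodes the beta B chain of activin and inhibin, rose from 4.09 and 3.63 to 26.7 and 23.1 rescaled RPM (2.69 ± 0.45, adjusted p = 0.00945). Both called inhibitors rose: Fstl3, a follistatin-like binder of activin and Gdf11, from 1.12 and 0.951 to 4.91 and 3.54 (2.01 ± 0.41, adjusted p = 0.0208), and Lefty1, an antagonist of Nodal, from 0.81 and 0.726 to 3.12 and 2.12 (1.75 ± 0.37, adjusted p = 0.0222). Fstl3 shares 47.3% of its exon bases with another gene of the annotation, so reads could be split between them. Foxh1, the DNA-binding partner of Smad2 in the response to Nodal, fell from 3.10 and 4.13 to 0.697 and 0.85 (-2.22 ± 0.29, adjusted p = 0.00354). The type II receptor gene Acvr2b was the second lower member. Smad2, Smad3, Smad4, Acvr1b and Tgfbr1 were not called, nor was Gdf11 itself, whose level was 9.09 and 6.51 at day 5 and 6.54 and 4.53 at day 8.

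Of 11 tested Smad2/3 and TGF-beta response genes, 3 rose and 2 fell, with a median of 1.08 (0.83 without the shallow library, with the same counts). The counts were 1 and 1, Ctgf and Nr6a1, without the day 5 library of line 1, and with that of line 3 left out they were 3 and 1. Ctgf, a matricellular gene, stood at 16.3 and 25.3 rescaled RPM at day 5 and 81.6 and 98.9 at day 8 (2.14 ± 0.23, adjusted p = 0.00271). Pmepa1, a feedback inhibitor of TGF-beta signalling, stood at 7.06 and 7.63 and then at 23.9 and 22.0 (1.64 ± 0.26, adjusted p = 0.00821). In Ctgf and Pmepa1 both day 8 libraries lay above both day 5 libraries, though the days did not overlap in 6997 of all 14063 tested genes. Nr6a1, an orphan nuclear receptor of the trunk programme, was 48.0 in both lines at day 5 and 16.6 and 14.9 at day 8 (-1.61 ± 0.20, adjusted p = 0.0032). Its call held in all 25 alternative settings, with adjusted p-values of 0.000453 to 0.0488. Mixl1, a homeobox gene of the primitive streak, was the other lower member, and lost its call when the libraries were paired by line. Among 17 tested BMP pathway and response genes 2 rose, Grem1 and Id3, the latter an inhibitor of bHLH factors that went from 13 and 10.4 to 20.8 and 18.3 (0.75 ± 0.18, adjusted p = 0.0344, and 0.0633 without the shallow library). Grem1 was the 1 call of that list without the day 5 library of line 1.

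Few Hox genes passed the test, and the median change rose from the 3-prime to the 5-prime group. Of the 12 tested 5-prime genes (paralogs 10 to 13), 11 had a positive change and 1 was called, with a median of 1.56 (1.66 without the shallow library). Hoxd12 was the called gene: it had 0 and 3 reads at day 5 and 53 and 6 at day 8, a 32.9-fold rise in reads (95% counting interval 10.7 to 164; adjusted p = 0.0111, and 0.113 without the day 5 library of line 1). Hoxa11 stood at 1.12 and 1.18 rescaled RPM and then at 3.55 and 3.83 (1.68 ± 0.48, adjusted p = 0.0614), Hoxa10 at 1.35 and 0.951 and then at 3.98 and 3.97 (1.81 ± 0.75, adjusted p = 0.162), and Hoxd13 at 0.27 and 0.526 and then at 1.43 and 1.42 (1.92 ± 0.73, adjusted p = 0.132). The days did not overlap in any of these 3 genes, but neither did they in 6997 of all 14063 tested genes, and their SE was large. Hoxa11 shares 35.0% of its exon bases with other genes of the annotation, so reads could be split between them. Hoxd11 had 61 and 41 reads at day 5 and 230 and 18 at day 8. In rescaled RPM it was higher at day 8 in each line, at 2.74 and 1.03 and then 7.64 and 2.55, but the days overlapped. Hoxc12 had 0 reads in both day 5 libraries and 4 and 0 at day 8. Hoxc11 went from 0.18 and 0.15 rescaled RPM (4 and 6 reads) to 0.531 and 0.708 (16 and 5 reads). Hoxa13, a terminal gene, had 11 and 12 reads and then 30 and 2, and Hoxb13 10 and 5 and then 11 and 8.

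At the other end of the clusters, 13 of 14 tested 3-prime genes (paralogs 1 to 5) had a negative change and 1 was called, with a median of -1.01 that moved to -0.37 without the shallow library. Hoxb1, the called gene, had 38 and 84 reads at day 5 and 11 and 0 at day 8 (-3.14 ± 0.73, adjusted p = 0.0318), and it was not called without the shallow library (0.135) or without the day 5 library of line 1 (0.172) or line 3 (0.134). Hoxc5 had 36 and 55 and then 27 and 0, and Hoxb2 70 and 98 and then 85 and 2, so their falls rested on the shallow library. Hoxb4 was the 1 positive member, at 1.75 and 2.40 rescaled RPM and then at 3.02 and 3.83. The 12 middle genes (paralogs 6 to 9) held 0 calls, with a median of -0.29 that became 0.24 without the shallow library. Hoxb6 stood at 11.4 and 6.18 and then at 3.49 and 2.55 (-1.49 ± 0.57, adjusted p = 0.131) and Hoxb9 at 6.39 and 5.53 and then at 14.8 and 6.80. Of the 9 Hox cofactor genes tested, 0 were called by limma.

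**Figure D4:**
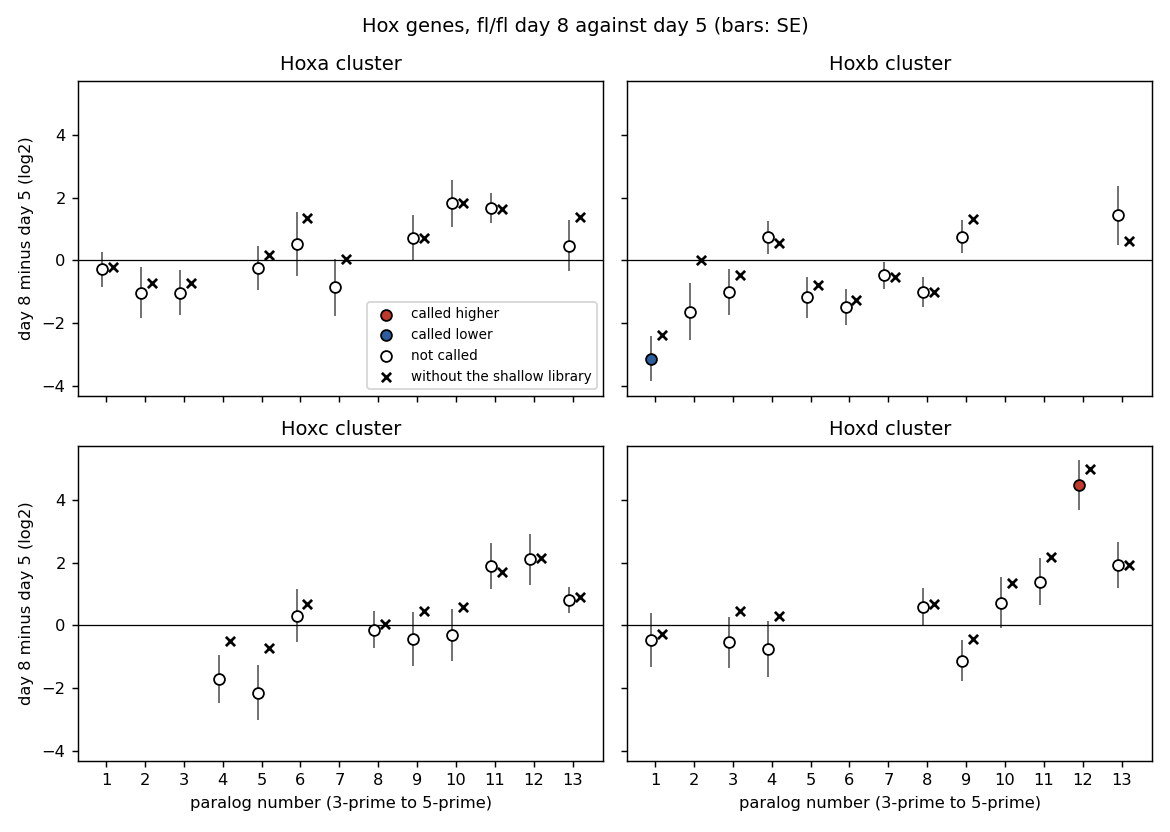
Change from day 5 to day 8 (y axis, log2, bars are SE) of each tested Hox gene by paralog number (x axis) in the 4 clusters; filled circles are called genes and crosses the change without the shallow library. Paralogs 10 to 13 lie mostly above 0 with Hoxd12 at 4.47, and paralogs 1 to 5 mostly below it with Hoxb1 at -3.14.

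Of 12 tested members of the Lin28 and let-7 timing list 4 were lower and 1 higher, with the same counts without the shallow library. Nr6a1, counted above among the Smad2/3 response genes, is a member of this list too and 1 of the 4. Leaving out the day 5 library of line 1 left 2 lower, Nr6a1 and Trim71, and 0 higher, and without that of line 3 the counts were 4 and 0. Lin28a, the RNA-binding inhibitor of let-7 maturation, had 1163 and 1596 reads at day 5 and 553 and 75 at day 8 (-1.71 ± 0.24, adjusted p = 0.00473). Trim71, a let-7 target and stem cell RNA regulator, stood at 15.8 and 16.2 rescaled RPM and then at 8.07 and 6.38 (-1.16 ± 0.14, adjusted p = 0.00351). Arid3b, a gene of the ARID family, stood at 27.9 and 24.8 and then at 14.1 and 10.2 (-1.13 ± 0.16, adjusted p = 0.00562). The member that rose was Hmga2, a chromatin protein gene and let-7 target, named after its values were seen.

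Wnt, Fgf and Notch genes mostly fell where they were called. Without the day 5 library of line 1, however, the lists of this paragraph held 1 call, the lower one of Wnt6. Among 12 tested Wnt ligands, 3 were lower and 1 higher, against 1 and 0 without the shallow library. Wnt6 went from 37.7 and 31.0 to 6.81 and 6.52 rescaled RPM (-2.36 ± 0.27, adjusted p = 0.00292) and kept its call in all 25 alternatives. Wnt5b went from 39.5 and 29.0 to 18.46 and 16.01, and Wnt8a, a ligand of the primitive streak, from 2.25 and 2.15 to 1.10 and 0.425. Their adjusted p-values were 0.0556 and 0.166 without the shallow library. Wnt11, a non-canonical ligand, rose from 1.08 and 1.40 to 11.4 and 9.07 (3.05 ± 0.59, adjusted p = 0.0168, and 0.0515 without the shallow library). Of 19 tested Wnt targets and feedback genes 4 were lower and 2 higher (2 and 1 without the shallow library), among them Axin2, the negative feedback scaffold, at 76.3 and 64.7 and then 41.6 and 45.2 (-0.70 ± 0.15, adjusted p = 0.0224). Sfrp2, a secreted modulator of Wnt ligands, rose from 7.65 and 9.04 to 20.45 and 35.98 (1.71 ± 0.27, adjusted p = 0.00753). Among 14 Fgf and ERK feedback genes the ETS factor genes Etv5 (20.7 and 18.7, then 10.6 and 9.35) and Etv4 fell and the phosphatase gene Dusp4 rose, the last 2 of these losing their calls without the shallow library (adjusted p = 0.104 and 0.18). Of 13 Notch pathway genes 4 fell (2 without the shallow library): beside Dll1 and Dll3 these were the receptor gene Notch1, from 14.8 and 15.0 to 5.31 and 5.67 (-1.44 ± 0.23, adjusted p = 0.00753), and the ligand gene Jag2. In the retinoic acid list 2 of 17 fell, Stra8 and the receptor gene Rarg, which had an adjusted p of 0.155 without the shallow library. With the libraries paired by line, Etv4, Dusp4 and Rarg had adjusted p-values of 0.0542, 0.0598 and 0.0508, and 1 Wnt target was higher.

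Of 20 tested naive pluripotency genes 3 were lower, with a median of -0.34, and 17 were not called. Without the day 5 library of line 1 the lists of this paragraph held 0 calls by limma, and without that of line 3 they held 0 naive, 3 DNA methylation, 1 Polycomb and 2 cell cycle genes, all lower. Utf1, a chromatin factor gene of ES cells, stood at 15.8 and 14.6 rescaled RPM and then at 6.31 and 6.80, and Klf2 and Dppa3 were the others, Klf2 with an adjusted p of 0.0862 without the shallow library. Dnmt3b, a de novo DNA methyltransferase gene of the epiblast, fell from 29.4 and 27.9 to 12.6 and 7.65 (-1.54 ± 0.21, adjusted p = 0.00468). Dnmt1, which maintains methylation, fell from 87.6 and 85.1 to 53.2 and 56.0 (-0.66 ± 0.10, adjusted p = 0.00746), and its recruiter Uhrf1 from 50.51 and 38.85 to 24.9 and 23.2 (-0.88 ± 0.15, adjusted p = 0.0111). These 3 of the 8 tested DNA methylation genes were lower with and without the shallow library, but not without the day 5 library of line 1, where the adjusted p-values of Dnmt3b, Dnmt1 and Uhrf1 were 0.0619, 0.0778 and 0.121. Of 16 Polycomb components 4 were lower, Phc1, Cbx2, Ezh2 and Pcgf2, the largest change among them being that of Cbx2 (19.3 and 15.4, then 8.70 and 8.07). Without the shallow library Cbx2 and Ezh2 had adjusted p-values of 0.052 and 0.0667, which left 2 calls. In the cell cycle list 5 of 22 were lower, all of them subunits of the replicative helicase (Mcm2 to Mcm6), and 3 were higher, the cyclin genes Ccnd1 and Ccnd2 and the inhibitor gene Cdkn2a. The counts were 3 lower and 1 higher without the shallow library, and 5 and 1 with the lines paired. Dppa3 (adjusted p = 0.0557) and Pcgf2 (0.0554) also lost their calls with the lines paired. Mcm5 stood at 62.9 and 56.3 and then at 34.7 and 25.8 (-0.99 ± 0.16, adjusted p = 0.00821).

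In the list of integrated stress response genes 5 of 15 were lower and 1 higher, against 3 and 0 without the shallow library and 5 and 0 with the lines paired. Slc7a3 was the 1 call without the day 5 library of line 1, and with that of line 3 left out the counts were 3 lower and 0 higher. Slc7a3, a cationic amino acid transporter gene, fell from 11.97 and 12.72 to 4.25 and 3.83 rescaled RPM (-1.61 ± 0.17, adjusted p = 0.00271). Chac1, a glutathione-degrading enzyme gene, had 115 and 179 reads and then 34 and 2 (-3.09 ± 0.48, adjusted p = 0.00753). Asns and Shmt2, which make asparagine and feed folate metabolism, fell by less, to changes of -0.77 and -1.09. Pdk1, a kinase that restrains pyruvate oxidation, fell from 39.8 and 37.1 to 17.6 and 9.78 (-1.55 ± 0.24, adjusted p = 0.00753), as 1 of 2 lower genes among 20 of glycolysis and hypoxia. The other was the glucose transporter gene Slc2a3, which lost its call without the shallow library (adjusted p = 0.0767), and neither passed without the day 5 library of line 1. The lists of oxidative phosphorylation (15 tested), cholesterol synthesis (14), heat shock (11), Hedgehog pathway (7) and 2-cell-like genes (9) held 0 calls by limma. With the lines paired 1 cholesterol gene, Fdps of the isoprenoid branch, was lower (adjusted p = 0.048).

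Insulin-like growth factor genes moved in both directions. Igfbp7 rose from 0.72 and 0.926 to 6.64 and 6.94 rescaled RPM (3.06 ± 0.42, adjusted p = 0.00468) and Igfbp5 from 1.84 and 1.73 to 6.94 and 9.07 (2.15 ± 0.30, adjusted p = 0.00468). Igfbp3 fell from 13.8 and 14.8 to 6.51 and 4.25 (-1.44 ± 0.31, adjusted p = 0.0246, and 0.115 without the shallow library). All 3 encode binding proteins that hold or release the growth factors, and without the day 5 library of line 1 their adjusted p-values were 0.0602, 0.0513 and 0.155. Igf2 rose from 78.5 and 65.6 to 112 and 188 (1.02 ± 0.26, adjusted p = 0.043), but was not called without the shallow library (0.64, adjusted p = 0.202) or with the lines paired (adjusted p = 0.0552). Igf2 shares 64.5% of its exon bases with other genes of the annotation, so reads could be split between them. Of 7 tested interferon response genes 2 rose. Usp18, which removes ISG15 from proteins, had 11 and 14 reads and then 152 and 43 (3.73 ± 0.52, adjusted p = 0.00468), a call that held without each of the 4 libraries, and Irf7, an interferon regulatory factor gene, had 23 and 43 and then 121 and 26 (adjusted p = 0.0447, 0.106 without the shallow library and 0.0579 with the lines paired). Smchd1, whose alleles are intact here, had 366 and 919 reads at day 5 and 728 and 111 at day 8 (0.00 ± 0.24, adjusted p = 0.996).

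Markers of other cell types were present in all 4 libraries, and the lines differed in them. Of 14 tested extraembryonic endoderm genes 5 were higher and 0 lower, with a median of 1.30, and 2 were higher without the shallow library. The median was 2.51 in line 1 and -0.11 in line 3. The list held 0 calls by limma without the day 5 library of line 1, with a median of 0.50, and without that of line 3 it held 6 higher genes, with a median of 1.90. The calls of the list thus depended on the day 5 library of line 1, while its median stayed above 0 without that library. The called members were the matrix genes Sparc, Col4a1, Col4a2, Lamb1 and Lamc1, which many mesodermal cells also express. Lamb1 stood at 86.7 and 121 rescaled RPM and then at 205 and 225 (1.07 ± 0.17, adjusted p = 0.00753). The defining factors of that endoderm were present but uneven, as 4 genes picked after their values were seen show. Gata4 had 44 and 517 reads at day 5 and 618 and 49 at day 8. Sox17 had 96 and 554 and then 846 and 95, Dab2 11 and 418 and then 276 and 32, and Lama1 218 and 4449 and then 6165 and 645. In rescaled RPM all 4 were lowest at day 5 in line 1, and none was called. The summed level of the list was 509 and 905 rescaled RPM at day 5 and 1519 and 1900 at day 8, with 3, 0, 1 and 2 members at 0. It was higher at day 8 together with the mesenchymal and matrix genes, and its part in their rise was not tested.

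Trophoblast genes were present without a call among 15 tested, at a summed level of 603 and 445 rescaled RPM at day 5 and 512 and 1073 at day 8, with 1, 1, 0 and 4 members at 0. The 1073 is the sum in the shallow library. For the genes with the most reads per exon base the median change was 0.37 (log2) in line 3, against -0.18 in line 1. For the trophoblast list it was 0.86 in line 3 and -0.51 in line 1. How far the shallow library raised this or any other summed level was not tested. Prl3b1, a placental lactogen gene, had 7 and 0 reads at day 5 and 559 and 15 at day 8 (adjusted p = 0.0549), so its level rested largely on line 1. Ascl2, a factor gene of trophoblast progenitors, was lower with the lines paired (adjusted p = 0.0287). Epithelial junction and keratin genes held 4 lower members of 18, Tjp3, Esrp1, Crb3 and Rab25, and 0 without the shallow library or either day 5 library. Tjp3 had an adjusted p of 0.0552 with the lines paired. The endothelial and blood list had 2 higher members of 9: Flt1, a VEGF receptor gene, at 4.95 and 14.8 and then 60.4 and 43.2 (2.58 ± 0.68, adjusted p = 0.0469), and Runx1. Neither passed without the shallow library or either day 5 library, nor with the lines paired (adjusted p = 0.0598 and 0.0579). Its summed level was 41.7 and 50.9 at day 5 and 101 and 92.6 at day 8, with 1, 2, 2 and 5 members at 0.

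Neural genes were called in both directions, though without the day 5 library of line 1 the lists of this paragraph held 1 call, that of Ngfr. Nes, an intermediate filament gene of neural and other progenitors, rose from 37.6 and 32.7 to 66.7 and 64.5 (0.90 ± 0.18, adjusted p = 0.0189), and Sox3 fell from 26 and 34 reads to 10 and 0, the 2 calls among 10 tested neural progenitor genes. Without the shallow library their adjusted p-values were 0.057 and 0.0748. Stmn2 rose and Mnx1 fell among 7 tested neuronal genes, Mnx1 with an adjusted p of 0.134 without that library and 0.0514 with the lines paired. Ngfr, a neurotrophin receptor gene, fell from 39.9 and 37.7 to 9.20 and 6.23 (-2.36 ± 0.24, adjusted p = 0.00271) and kept its call in all 25 alternatives. It and Snai2, which rose (adjusted p = 0.0207, and 0.0731 without the shallow library), were the called members of 6 tested neural crest genes. Cardiac muscle (6 tested) and definitive endoderm and gut (8) held 0 calls. Tnnt2, a troponin gene, went from 6 and 24 reads to 80 and 8 (adjusted p = 0.0729 by limma). In rescaled RPM it was higher at day 8 in each line, at 0.27 and 0.601 and then 2.66 and 1.13. Cxcr4, a chemokine receptor gene, went from 128 and 117 reads to 33 and 8 (adjusted p = 0.0673 by limma). The primed pluripotency list of 10 had 1 lower gene, Dnmt3b, and p53 targets 2 higher of 12, Eda2r and Ccng1, against 0 without the shallow library and 1 with the lines paired.

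The course of the control cells was set against that of the del/del cells of the same lines, which share no library with it. The test of the difference between the changes called 1 of 14063 genes (0.00711%), and 1925 had an unadjusted p under 0.05. That gene was Mmp11, a stromelysin gene, which stood at 3.87 and 4.63 rescaled RPM at day 5 and 6.21 and 6.94 at day 8 in the control cells. Its change was 0.63 ± 0.19 in fl/fl and 3.04 ± 0.19 in del/del, a difference of -2.40 ± 0.26 (adjusted p = 0.0294 by limma). The replicate block, which pairs the libraries by line, called 0 genes for this difference. The next 4 genes by p did not pass. Igfbp3 changed by -1.44 in fl/fl and 1.89 in del/del (adjusted p of the difference 0.0548), and Aoah, a lipopolysaccharide-deacylating enzyme gene, by -0.16 and -5.27 (0.0548). Bai2, an adhesion receptor gene, changed by -1.66 and 1.51 (0.0564), and Stra8 by -4.25 and 1.67 (0.0564). Lect2, with its rise of 5.88 in fl/fl, changed by 0.28 in del/del (adjusted p of the difference 0.239). Of the 929 called genes, 872 moved the same way in del/del, and 447 were called there in the same direction. Over all 14063 tested genes, 1028 were called higher and 642 lower in del/del. How many of all tested genes shared their sign between the genotypes was not determined, so the 872 has no background beside it. Tnc, Ctgf, Wnt6 and Foxh1 changed by 5.51, 2.37, -2.50 and -2.22 in del/del, beside 6.16, 2.14, -2.36 and -2.22 in fl/fl. Among 5-prime Hox genes the median was 1.56 in fl/fl and 3.57 in del/del, with 0 called differences by limma. Because del/del cells were also transduced and selected, deletion, transduction and selection cannot be told apart here.

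**Figure D5:**
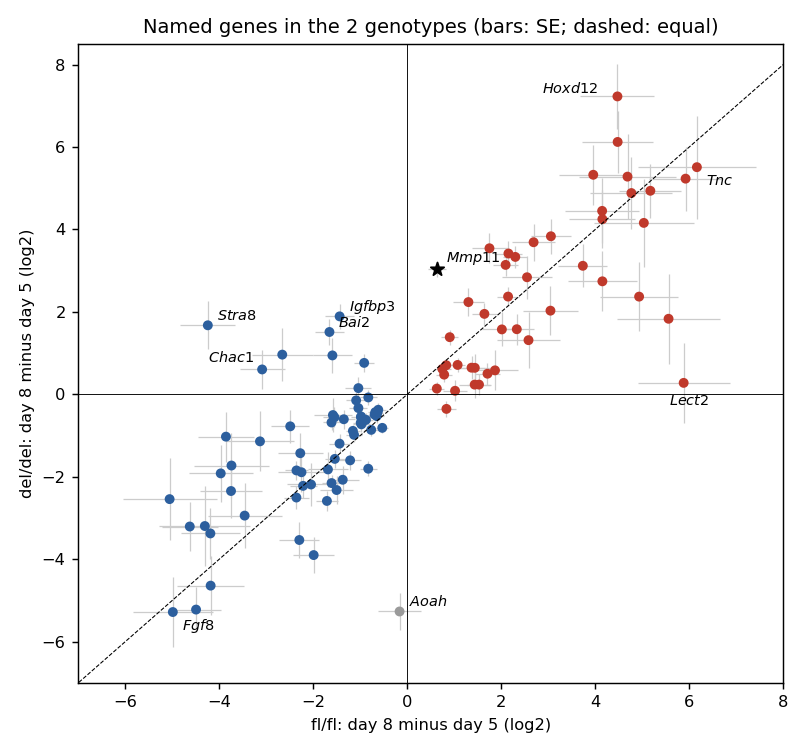
Change from day 5 to day 8 in fl/fl (x axis, log2) and del/del (y axis, log2) of the named genes that were called in fl/fl (red higher, blue lower) or were among the 5 smallest p-values for the difference (Aoah grey, Mmp11 star). Bars are SE and the dashed line marks equal change; Mmp11, at 0.63 and 3.04, is the called difference, and Stra8, Igfbp3 and Bai2 lie in the quadrant of opposite signs.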

How the data were processed

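RNA was sequenced from 12 libraries in 6 groups of 2 (Smchd1 fl/fl and del/del at day 1, day 5 and day 8), and 14063 of 25965 genes were tested. The submitters' processing notes list bcl2fastq, TopHat2 2.0.12, edgeR and genome build mm10. What each tool did, and whether duplicates were removed, the sources used here do not give. The authors deposited log2 RPM, per the labels and the column values. The deposited log2 values are whole multiples of 1 read for 100% of genes within 0.02 reads, with 0 reads entered as 0.9, which allowed reads to be recovered. A gene was tested if 2 or more libraries exceeded 0 on the deposited scale. Each library was shifted by the median of its log ratios to the gene means over 13164 genes. limma 3.58.1 (R 4.3.3) fitted 6 group means with a trended prior, and Benjamini-Hochberg adjusted p-values, taken over all 14063 genes, were read at 0.05. The contrasts were day 8 minus day 5 in fl/fl, the same in del/del, and their difference. The fit was checked on simulated reads.

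The column names show that replicates 1 and 2 stand for lines 1 and 3, so same-numbered libraries come from the same ES line. Their deviations from the group means correlated by -0.154 to 0.24 over the pairs of groups, and by -0.0786 between fl/fl day 5 and fl/fl day 8. The fit with the line as a block is given as an alternative.

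The genes named were the 12 largest rises and falls among called genes whose days did not overlap and that had at least 10 reads in both libraries of the higher day, every Hox gene, up to 4 called members of each list with the smallest p (where fewer than 2 were called, the 2 with the smallest p), the 5 smallest p for the difference of the genotypes, and Smchd1. The rule leaves out predicted genes, clones, pseudogenes, small RNA genes and duplicated names. Members, 44 gene lists, tests and the relative scale were chosen with earlier results of these data known. Exon lengths and overlaps came from GENCODE M21, which matched 87.5% of rows by name and position, and promoters from RefSeq. Intervals at 95% are exact and cover counting error only, and floors are 3 reads over a group. Alternatives were the deposited scale, pseudocounts of 0.1 and 1 rescaled RPM, other filters, voom weights on the recovered reads, array weights, fewer libraries, the block, thinning to 1509642 reads, each library left out, and, chosen after seeing the data, removal of the trend with reads per exon base. Of the Smad2/3 list, 1 called gene is not reported here.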

Additional observations from a re-analysis of the deposited data

Results flagged for a closer look

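The change of Mmp11 from day 5 to day 8 differed between the genotypes by -2.40 on the log2 scale (fl/fl minus del/del), which passed the test of the difference itself (adjusted p = 0.0294 by limma). It was the 1 gene of 14063 to do so. With voom weights, with array weights and with the replicate block, 0 genes passed this test.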

How the results depend on the processing

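None of the 106 called genes among the 166 tabulated changed direction in any alternative in which it was fitted (25, or 24 for 2 genes under the stricter filter's level), but the counts of calls moved. Genes higher and lower at day 8, 425 and 504 with all libraries, were 24 and 152 on the deposited scale, 672 and 611 with a pseudocount of 1 rescaled RPM, 500 and 248 with voom weights and 48 and 95 with array weights. They were 278 and 309 after thinning to the shallowest library, 40 and 8 with the 4 fl/fl libraries alone and 142 and 159 with the 6 fl/fl libraries. On the deposited scale 13.6% of the calls were higher, with voom weights 66.8%, against 45.7% in the fit reported. The replicate block, which pairs libraries by line, gave 339 and 437 with 12 libraries and 127 and 58 with 4. Beside the calls given above it ended those of Mest (adjusted p = 0.0552) and Sycp3 (0.0579), and changed no other call among the 166 genes. Leaving out 1 library at a time gave 35 to 1221 higher and 23 to 2033 lower. The difference between genotypes, 1 gene, was called for 26 genes on the deposited scale, 88 and 2 with pseudocounts of 1 and 0.1, 5 with no filter, 0 with voom weights, 0 with array weights, 0 with the replicate block and 4 with the density trend removed, and for 0 to 2175 when 1 library was left out. Of the 106 genes, 13 kept their call without the day 5 fl/fl library of line 1, 50 without that of line 3, 63 without the shallow library, 16 with the 4 fl/fl libraries alone and 57 with 6, 45 with those 4 and the block, 29 with array weights, 47 on the deposited scale, 92 with 12 libraries and the block, 80 with voom weights, 83 after thinning and 100 with the density trend removed, an alternative chosen after seeing the data. The cause of these movements was not tested. With 1.51 M gene reads in the shallow library, genes under a few reads there carry little information.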
